A study of Mus musculus with 2 samples.

Results

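The 48 genes described here encode the DNA replication machinery: the proteins that mark and license origins, unwind DNA, synthesise and join both strands, supply nucleotides and pack the new DNA into chromatin. They were chosen by name from a list of licensing, polymerase, clamp and nucleotide supply genes, and each matched exactly 1 of the 55536 genes listed in the gene tables. Their levels were read in polyadenylated RNA from the forebrain of newborn mice of strain B6NCrl (P0, age 0 days), a tissue of mostly postmitotic neurons that still holds dividing progenitors. Of the 2 libraries, replicate 2 came from pup 3 and replicate 1 from pup 1. Each was made from a single forebrain and 10 ng of RNA, with oligo-dT priming and tagmentation. The labels give neither pup a treatment or an altered allele, and they give both the same donor identifier, with sex not collected. The 2 libraries therefore form 1 group, no test between groups was possible, and differences are given by their size.

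Before S phase the origin recognition complex (Orc1 to Orc6) loads the ring-shaped Mcm2-7 helicase onto DNA with Cdc6 and Cdt1, a step called licensing, and geminin (Gmnn) blocks Cdt1 once replication has begun. Cdc45 and the GINS complex then turn the loaded ring into an active helicase. Polymerase alpha with primase starts each strand, polymerases delta and epsilon extend it on the sliding clamp Pcna, and replication factor C (RFC) loads that clamp. Many of these genes are textbook targets of the E2F transcription factors, which drive entry into S phase. In the newborn forebrain, dividing cells are found mainly in the germinal zones along the ventricles and among glial precursors.

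Nearly the whole machinery was present in both forebrains. Of the 48 genes, 47 reached 1 TPM (a share of all transcripts in the library, scaled by transcript length and depth) in both pups, against 59.5% of 22028 protein-coding genes. Their median level was 18.8 ± 1.17 TPM (SD of the 2 pups' medians), beside 16.3 TPM over detected protein-coding genes and 3.77 TPM over all protein-coding genes. In both pups 35 genes stood at 10 TPM or more and 7 at 50 TPM or more, while 8 stayed under 5 TPM. The genes together took 0.146% of the pup 3 estimated counts, with a Wilson interval at 95% of 0.145 to 0.147, against 0.136% of those of pup 1, with an interval of 0.134 to 0.137. Their summed TPM lay the other way, at 1213 in pup 3 against 1221 in pup 1. The libraries held 41230878 estimated counts in pup 3 and 40964891 in pup 1.

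The tissue label was read against marker genes. All 8 neuronal markers were detected in both pups, led by Tubb3, a tubulin of neurons, at 1626 TPM in pup 3 against 1749 TPM in pup 1. All 8 radial glia markers were detected too, among them Sox2, at 18.4 TPM in pup 3 against 25.6 TPM in pup 1, and all 6 markers of intermediate progenitors. The 15 genes of mitosis were all detected, with a median of 9.58 ± 1.71 TPM. They ran from Cdk1, the kinase that drives mitosis, at 44 TPM in pup 3 against 39.4 TPM in pup 1, and Birc5, of the chromosomal passenger complex, at 25 TPM in pup 3 against 20.6 TPM in pup 1, down to the checkpoint kinase Bub1, at 2.65 TPM in pup 3 against 3.07 TPM in pup 1. The proliferation marker Mki67 was the lowest, at 1.89 TPM in pup 3 against 3.29 TPM in pup 1. In whole tissue, fewer cells of a type and less RNA per cell cannot be told apart.

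E2F motifs stood in a larger share of the promoters of these genes than of promoters at large. The motif was searched as TTTCCCGC, TTTGGCGC, TTTCGCGC or TTTGCCGC on both strands, from 250 bases before to 50 bases after the start sites in RefSeq (GRCm38.p6). At least 1 match was found in 15 of the 40 genes with a promoter sequence, or 37.5%, against 2.6% of 27025 genes and 3.29% of 17492 protein-coding genes. Because promoters of the 40 genes were rich in G and C (median 60.7%, against 56.3% in protein-coding genes), the share was also read in the 6696 protein-coding genes at or above that median, where it was 5.03%. The 15 genes belonged to origin licensing (Orc1, Orc3, Cdc6, Cdt1), the helicase (Mcm3, Mcm5, Mcm6, Mcm7, Gins3), the polymerases (Pola1, Pold1, Pold3, Pole2), the clamp loader (Rfc3) and the ligase (Lig1). No match was found in the windows of the nucleotide supply genes, the RPA and CAF-1 subunits, Pcna, Fen1 or Top2a. The other 8 genes, Mcm4, Gmnn, Gins1, Gins2, Gins4, Prim2, Pole and Rfc2, had no promoter sequence and were not searched. A match is a run of letters and does not show that a factor binds there.

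Mcm6 held 3 matches, more than any other of the 15, and its upstream region is shown whole, 5′ to 3′ in the gene's direction, with the matches in capitals. The first capital run joins 2 overlapping matches, 1 on each strand.
Mcm6, chr1:128359706-128359955, minus strand: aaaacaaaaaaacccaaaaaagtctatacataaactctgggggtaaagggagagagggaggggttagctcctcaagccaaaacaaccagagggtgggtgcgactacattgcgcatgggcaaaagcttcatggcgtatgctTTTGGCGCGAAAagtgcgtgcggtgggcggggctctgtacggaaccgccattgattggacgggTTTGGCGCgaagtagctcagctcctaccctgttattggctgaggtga

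For the other genes only the match, in capitals, and up to 11 bases on either side are shown, again in the gene's direction. Matches that begin with GCG lie on the opposite strand. The 2 matches of Mcm5 overlap each other.
Cdc6, chr11:98908002-98908031, plus strand: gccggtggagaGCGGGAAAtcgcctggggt
Cdt1, chr8:122568036-122568064, plus strand: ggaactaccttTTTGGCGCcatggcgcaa
Gins3, chr8:95633507-95633536, plus strand: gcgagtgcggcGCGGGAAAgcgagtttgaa
Lig1, chr7:13278841-13278870, plus strand: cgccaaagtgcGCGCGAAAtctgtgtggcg
Mcm3, match 1, chr1:20820263-20820285, minus strand: acttgggaagtTTTGGCGCcaag
Mcm3, match 2, chr1:20820275-20820304, minus strand: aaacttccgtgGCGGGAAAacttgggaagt
Mcm5, match 1, chr8:75109345-75109374, plus strand: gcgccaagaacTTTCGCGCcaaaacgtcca
Mcm5, match 2, chr8:75109349-75109378, plus strand: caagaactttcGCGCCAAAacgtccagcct
Mcm7, match 1, chr5:138171849-138171878, minus strand: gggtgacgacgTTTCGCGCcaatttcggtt
Mcm7, match 2, chr5:138172030-138172059, minus strand: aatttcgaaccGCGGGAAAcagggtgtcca
Orc1, chr4:108579416-108579445, plus strand: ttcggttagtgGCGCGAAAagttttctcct
Orc3, chr4:34614965-34614994, minus strand: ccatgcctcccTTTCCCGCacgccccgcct
Pola1, chrX:93632275-93632304, minus strand: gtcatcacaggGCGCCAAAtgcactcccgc
Pold1, chr7:44548766-44548787, minus strand: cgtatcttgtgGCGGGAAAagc
Pold3, chr7:100121467-100121496, minus strand: gagcgaagctgTTTCCCGCcggcgggagct
Pole2, chr12:69228162-69228191, minus strand: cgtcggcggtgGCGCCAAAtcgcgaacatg
Rfc3, match 1, chr5:151651190-151651219, minus strand: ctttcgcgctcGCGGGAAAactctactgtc
Rfc3, match 2, chr5:151651200-151651229, minus strand: acgtcgcacgcTTTCGCGCtcgcgggaaaa

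Of the 21 matches, 14 lay within 100 bases of the start, 9 on the gene's strand and 12 on the other. The form TTTCCCGC accounted for 8, TTTGGCGC for 7 and TTTCGCGC for 6, and TTTGCCGC was not found. CCAAT, the box bound by NF-Y, was present in 25 of the 40 genes (62.5%), against 41.1% of all genes. The letters TTTGAA, known as the CHR element of genes that peak in mitosis, were present in 6 of the 40 (15%), against 20.2% of all genes. For Orc1 and Mcm7, the start of the most abundant transcript lay 24637 bases inside and 539 bases outside the start used for the window, and for the other 13 genes the gap was at most 106 bases. For Orc1 that transcript was Orc1-202, the highest in TPM but with only 4 counts in pup 3 and 5 in pup 1. The coding transcript Orc1-201 held more counts, 18 in pup 3 and 21 in pup 1.

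**Figure D1:**
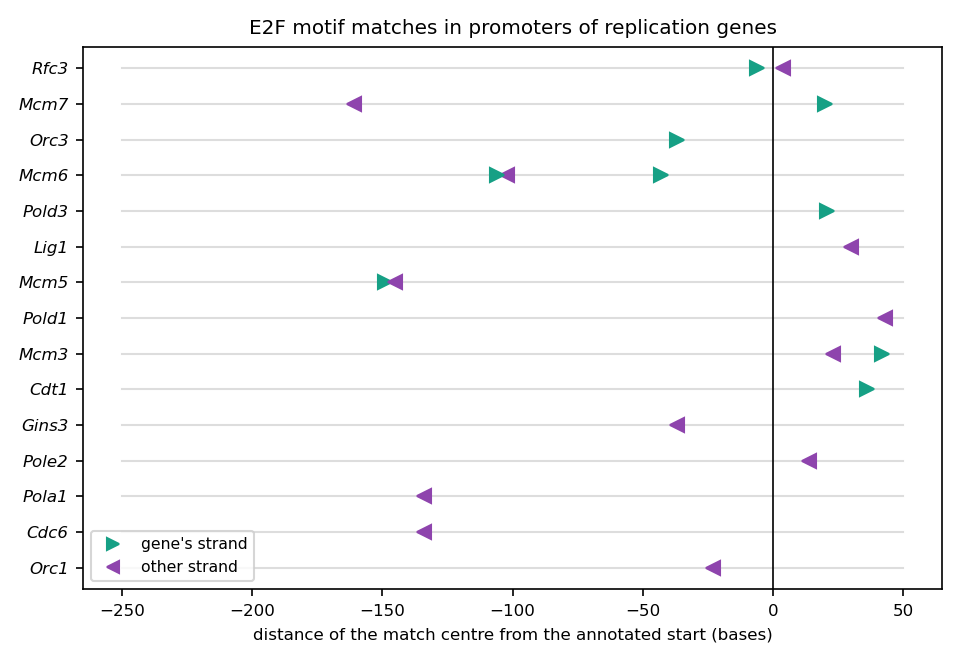
Positions of the 21 E2F motif matches in the promoters of 15 replication genes, in bases from the annotated start, with genes ordered by mean TPM from the highest at the top. Green triangles mark matches on the gene's strand and purple ones matches on the other strand. Of the 21 matches, 14 lie within 100 bases of the start.

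Genes with a match were not the most abundant ones. Their median level was 11.5 TPM (range 0.58 to 55.6), against 24.1 TPM (1.59 to 105) for the 25 genes without a match, and the ranges overlapped over most of their length. The E2F family itself was led by its repressor-type members. E2f4, a repressor in resting cells, stood at 25.1 TPM in pup 3 against 25.3 TPM in pup 1. E2f1, an activator of S-phase genes, stood at 3.77 TPM in pup 3 against 4.07 TPM in pup 1, and E2f2, another activator, at 0.67 TPM in pup 3 against 1.18 TPM in pup 1. By its mean over both pups the lowest of the family was E2f8, an atypical repressor, at 0.81 TPM in pup 3 against 0.94 TPM in pup 1. Tfdp1, a partner with which most E2F proteins bind DNA, was the highest of the 19 genes read for this pathway, at 64.2 TPM in pup 3 against 80.0 TPM in pup 1. Next was Lin37, of the DREAM complex that represses cell cycle genes in resting cells, at 39.4 TPM in pup 3 against 43.8 TPM in pup 1. The median over these 19 genes was 4.9 ± 1.53 TPM, and 17 were detected in both pups.

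The origin recognition complex was the most uneven of the complexes. Orc1, an ATPase subunit (chromosome 4, 108579423 to 108614833), was the only one of the 48 genes under 1 TPM. It stood at 0.46 TPM in pup 3, from 22 counts, and at 0.7 TPM in pup 1, from 27 counts, and the deposited intervals of 0.449 to 2.29 TPM in pup 3 and 0.532 to 2.61 TPM in pup 1 overlapped widely. Its partners were 1 to 2 orders of magnitude higher in both pups. Orc4 stood at 62.1 TPM in pup 3 against 57.2 TPM in pup 1. Orc6 stood at 58 TPM in pup 3 against 51.1 TPM in pup 1, and Orc3 at 52.9 TPM in pup 3 against 56.2 TPM in pup 1. These 3 were close, and the order of Orc3 and Orc6 was not the same in both pups. Orc5 followed with 23.2 TPM in pup 3 against 28.7 TPM in pup 1, and Orc2 with 13.5 TPM in pup 3 against 17.8 TPM in pup 1. The ratio of the highest to the lowest subunit was 135 in pup 3 and 81.7 in pup 1, and it rests on the few counts of Orc1. With posterior mean TPM the mean ratio was 44.7, and on protein-coding transcripts alone 227, against 108 as deposited in TPM. On protein-coding transcripts Orc6 was the highest subunit, at 55 TPM in pup 3 against 48.4 TPM in pup 1. Orc4 fell below Orc3 there, at 25.8 TPM in pup 3 against 23.8 TPM in pup 1.

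The factors that bring the helicase to the origin were low. Cdc6, the loader that acts with the origin recognition complex, stood at 1.33 TPM in pup 3 against 1.08 TPM in pup 1, among the lowest 2.1% of detected protein-coding genes. Cdt1 stood at 5.18 TPM in pup 3 against 5.06 TPM in pup 1. Gmnn, the inhibitor of Cdt1, stood at 12.1 TPM in pup 3 against 10.6 TPM in pup 1. Within each pup Gmnn thus exceeded Cdt1, with a log2 ratio of 1.13 ± 0.11 (n = 2 pups), or 2.19-fold.

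All 6 subunits of the Mcm2-7 ring were present, although a ring holds 1 copy of each and the levels spanned a ratio of 5.55 in pup 3 and 5.72 in pup 1. Mcm7 (chromosome 5, 138164583 to 138172422) led with 55.6 TPM in pup 3 against 53.6 TPM in pup 1. Mcm6 (chromosome 1, 128331590 to 128359664) followed with 28 TPM in pup 3 against 33.5 TPM in pup 1. Mcm5 stood at 15.1 TPM in pup 3 against 15.2 TPM in pup 1. The remaining 3 lay close together. Mcm4 stood at 10.5 TPM in pup 3 against 14 TPM in pup 1, and Mcm2 at 11.8 TPM in pup 3 against 11.7 TPM in pup 1, so that their order was reversed between the pups. Mcm3 was the lowest, at 10 TPM in pup 3 against 9.37 TPM in pup 1.

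Among the genes that activate the helicase, Gins4 was far above the rest, at 33.5 TPM in pup 3 against 37.7 TPM in pup 1. The other GINS subunits descended from Gins1, at 13.9 TPM in pup 3 against 12.8 TPM in pup 1, through Gins2, at 8.51 TPM in pup 3 against 7.97 TPM in pup 1. Gins3 was lowest of the 4, at 2.54 TPM in pup 3 against 3.65 TPM in pup 1. The order was the same in both pups, with a ratio of highest to lowest of 13.2 in pup 3 and 10.3 in pup 1. Cdc45, which joins GINS on the helicase, stood at 5.05 TPM in pup 3 against 4.55 TPM in pup 1. Mcm10, needed to start unwinding, stood at 1.54 TPM in pup 3 against 1.63 TPM in pup 1.

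Pola1 and Pold1, the catalytic subunits of polymerases alpha and delta, were low beside their partners, while Pole was not lower than Pole2. In polymerase alpha-primase, Pola1, the polymerase itself, stood at 1.55 TPM in pup 3 against 2.09 TPM in pup 1, while its B subunit Pola2 stood at 12.2 TPM in pup 3 against 11.3 TPM in pup 1. That made Pola1 6.23-fold lower than Pola2 (log2 ratio -2.64 ± 0.36, n = 2 pups). Prim1, the primase that makes the RNA primer, was the highest of the complex, at 28.2 TPM in pup 3 against 30.8 TPM in pup 1, and Prim2, its large subunit, stood at 14.2 TPM in pup 3 against 15.1 TPM in pup 1. The Prim1 to Prim2 ratio was the steadiest of all 11 pairs read, at a log2 of 1.01 ± 0.03.

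Polymerase delta, which extends the lagging strand, had its subunits within a ratio of 3.37 in pup 3 against 3.61 in pup 1. Its catalytic subunit Pold1 was the lowest of the 3, at 11.3 TPM in pup 3 against 11.8 TPM in pup 1. Pold3 stood at 25.2 TPM in pup 3 against 33.2 TPM in pup 1, and Pold2 at 38.2 TPM in pup 3 against 42.4 TPM in pup 1. For polymerase epsilon, the enzyme of the leading strand, the RNA levels of Pole and Pole2 were low. Pole (chromosome 5, 110286306 to 110337474) stood at 1.97 TPM in pup 3 against 2.94 TPM in pup 1, and Pole2 at 1.65 TPM in pup 3 against 2.14 TPM in pup 1, with overlapping ranges. Pole was 4.64-fold lower than Pold1 (log2 ratio -2.21 ± 0.36). The small histone-fold subunits Pole4 and Pole3 were much higher, at 116 TPM in both pups for Pole4 and at 41.5 TPM in pup 3 against 56.5 TPM in pup 1 for Pole3.

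The sliding clamp and its loader had a group median of 46.4 TPM in pup 3 against 39.1 TPM in pup 1, close to that of the origin recognition genes, at 38.1 TPM in pup 3 against 39.9 TPM in pup 1. On protein-coding transcripts alone, the clamp and loader median was 23.3 TPM in pup 3 against 21.2 TPM in pup 1, below that of RPA, at 30.1 TPM in pup 3 against 27.9 TPM in pup 1. Pcna (chromosome 2, 132249162 to 132253314), the ring that tethers polymerases to DNA, stood at 108 TPM in pup 3 against 102 TPM in pup 1, above 88.1% of detected protein-coding genes. Its processed pseudogene Pcna-ps2 held 1.28 TPM in pup 3 against 1.09 TPM in pup 1. Rfc2 stood highest of the 48 genes, at 128 TPM in pup 3 against 124 TPM in pup 1, a level that depends on the annotation as described further on. Rfc3 stood at 59.3 TPM in pup 3 against 51.8 TPM in pup 1, Rfc4 at 33.5 TPM in pup 3 against 26.4 TPM in pup 1, and Rfc5 at 24 TPM in pup 3 against 23.7 TPM in pup 1. Rfc1, the large subunit, was lowest, at 20.1 TPM in pup 3 against 23 TPM in pup 1, and Pcna exceeded it 4.88-fold (log2 ratio 2.29 ± 0.2). On protein-coding transcripts alone that log2 ratio was 3.71.

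The genes that finish the lagging strand stood at similar levels. Fen1, the nuclease that trims flaps, had 24.5 TPM in pup 3 against 23.7 TPM in pup 1, and Lig1, the ligase that seals the nicks, had 16.1 TPM in pup 3 against 21.7 TPM in pup 1. The 3 subunits of RPA, which coats single-stranded DNA, were the most even of the complexes with 3 or more subunits, with a ratio of highest to lowest of 1.28 in pup 3 and 1.66 in pup 1. Rpa1 stood at 39.8 TPM in pup 3 against 44.7 TPM in pup 1, Rpa3 at 35.3 TPM in pup 3 against 29.7 TPM in pup 1, and Rpa2 at 31.1 TPM in pup 3 against 26.9 TPM in pup 1. On protein-coding transcripts alone Rpa3 led in both pups, at 34.4 TPM in pup 3 against 29.3 TPM in pup 1. Rpa1 stood there at 24.9 TPM in pup 3 against 27.9 TPM in pup 1. RPA and Fen1 also act in DNA repair.

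Among the genes that supply nucleotides, Rrm2, the subunit of ribonucleotide reductase made in S phase, led with 40.3 TPM in pup 3 against 41.6 TPM in pup 1. Tyms, which makes thymidylate, had 27.1 TPM in pup 3 against 22.2 TPM in pup 1, and Rrm1, the large reductase subunit, had 20.4 TPM in pup 3 against 25.5 TPM in pup 1. Tk1, the cytosolic thymidine kinase, was the lowest, at 8.81 TPM in pup 3 against 10.1 TPM in pup 1. On protein-coding transcripts alone Tyms was the lowest instead, at 4.54 TPM in pup 3 against 2.97 TPM in pup 1. Tk1 stood there at 7.37 TPM in pup 3 against 5.77 TPM in pup 1. Top2a, the topoisomerase of dividing cells, stood at 14.4 TPM in pup 3 against 16.3 TPM in pup 1. In CAF-1, which places histones on new DNA, Chaf1b had 20.1 TPM in pup 3 against 17.4 TPM in pup 1, and Chaf1a had 3.57 TPM in pup 3 against 3.81 TPM in pup 1, 4.96-fold lower (log2 ratio -2.31 ± 0.21).

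**Figure D2:**
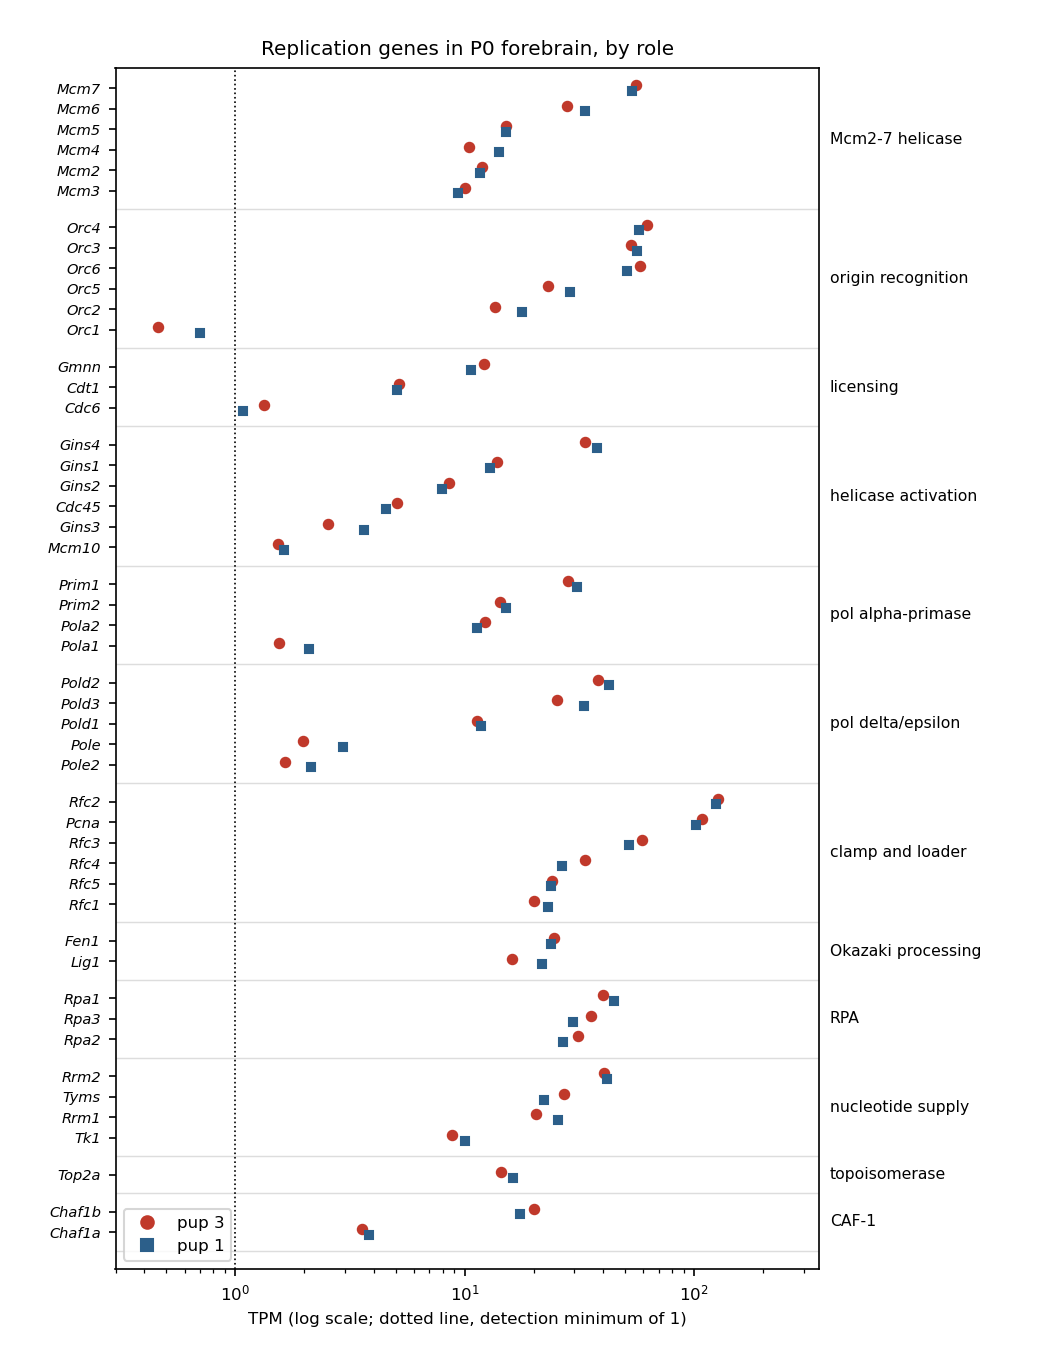
TPM (log scale) of the 48 replication genes, grouped by role, in pup 3 (red circles) and pup 1 (blue squares), with a dotted line at the detection minimum of 1 TPM. Orc1 alone lies left of the line, and Rfc2 and Pcna lie above 100 TPM in both pups.

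Several of these enzymes have a counterpart that works outside S phase, in mitochondria, repair or nondividing cells, and the balance went both ways. Rrm2 exceeded Rrm2b, the subunit of resting cells, with 40.3 against 6.7 TPM in pup 3 and 41.6 against 10.1 TPM in pup 1, a log2 ratio of 2.3 ± 0.39. Tk1 was lower than Tk2, the mitochondrial kinase, which stood at 36 TPM in pup 3 against 37.3 TPM in pup 1, with a log2 ratio of -1.95 ± 0.1. Top2a was lower than Top2b, the form of nondividing cells, which stood at 35.7 TPM in pup 3 against 43.6 TPM in pup 1, with a log2 ratio of -1.36 ± 0.08. Lig1 exceeded Lig3, the ligase of repair and mitochondria, at 10.7 TPM in pup 3 against 15.1 TPM in pup 1, with a log2 ratio of 0.56 ± 0.05. Rrm1, which pairs with either small subunit, was lower than Rrm2 (log2 ratio -0.84 ± 0.2). In all 11 pairs the sign was the same in both pups.

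**Figure D3:**
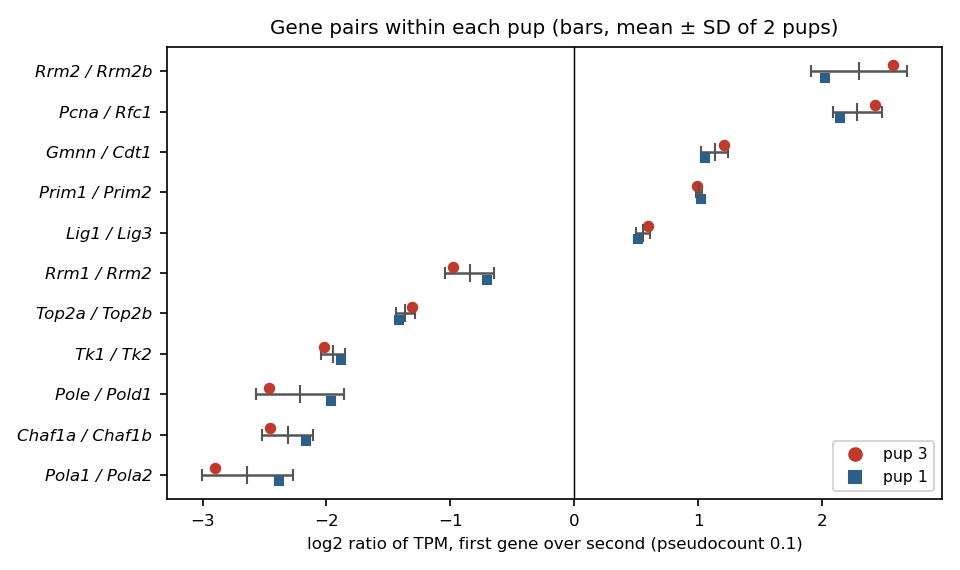
Log2 ratio of TPM between 2 genes of the same library for 11 pairs, in pup 3 (red circles) and pup 1 (blue squares), with grey bars for the mean ± SD of the 2 pups. The ratios run from 2.3 for Rrm2 over Rrm2b to -2.64 for Pola1 over Pola2, and both pups lie on the same side of 0 in every pair.

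Beyond the 48 genes, 39 further genes of replication were read, held in 40 entries because Chtf8 carries 2 identifiers. Of these entries 38 were detected in both pups, with a median of 8.33 ± 1.88 TPM. By the mean of both pups the highest were Pole4 and Dut, the enzyme that keeps uracil out of DNA, at 76.6 TPM in pup 3 against 74.2 TPM in pup 1. The lowest were a pair of genes that help fire origins in vertebrates, Recql4, at 0.51 TPM in pup 3 against 0.7 TPM in pup 1, and Ticrr, at 0.4 TPM in pup 3 against 1 TPM in pup 1.

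The 2 pups differed little in these genes. On the log2 scale of TPM + 1 in pup 3 over pup 1, taken relative to the median of all 15463 genes with a mean of 1 TPM or more, none of the 47 genes was over 1.5-fold apart in either direction, against 3.29% of all genes higher in pup 3 and 4.9% lower. Their median was 0.2 and 36 of the 47 (76.6%) stood above the all-gene median, beside 49% of protein-coding genes. The all-gene median itself was -0.24, and without subtracting it the median of the 47 genes was -0.04, with 22 of them above 0. In CPM scaled by TMM, with no centring, the median was 0.28 and 43 stood above 0. The direction therefore depends on what the genes are set against. The spread over the 47 genes was an SD of 0.21, beside 0.39 over all genes.

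Rfc4 was the most different towards pup 3, with a relative log2 ratio of 0.57, followed by Tyms at 0.52, Rpa3 at 0.48, Rpa2 at 0.44 and Rfc3 at 0.43. At the other end were Pole at -0.17, Lig1 at -0.17, Gins3 at -0.16, Mcm4 at -0.16 and Pold3 at -0.14. By the intervals deposited with each TPM, with no centring, 5 of the 47 genes (10.6%) stood apart with pup 3 higher (Orc6, Rfc3, Rfc4, Rpa2 and Rpa3), against 5.73% of all genes. A further 7 (14.9%) stood apart with pup 3 lower (Mcm4, Mcm6, Orc5, Gins4, Pold3, Lig1 and Rrm1), against 44.5% of all genes. The intervals of the other 35 overlapped. These intervals cover the uncertainty of assigning reads within a library and not the variation between pups, and their level is not given in the sources used here.

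Transcript length moved with the difference between the pups. Across all 15463 genes, Spearman's rho between mean transcript length and the log2 ratio was -0.46, and across the 47 genes it was -0.5. These are correlations across genes of the same 2 libraries. The 5 genes apart with pup 3 higher had lengths of 670 to 1771 bases (median 1275), and the 7 apart with pup 3 lower had lengths of 1349 to 3823 bases (median 2637). When each gene was set against protein-coding genes in its own of 5 length groups, the median of the 47 genes was 0.19 and 36 stood above 0. The ranking changed there, with Cdc6 the highest at 0.49 in place of Rfc4, and Lig1 the lowest at -0.23 in place of Pole. In the shortest of these groups, 10 of the replication genes had a median of 0.41, beside 0.24 over 2696 protein-coding genes. In the middle group, 14 had a median of 0.24, beside -0.02 over 2694. The gap was smaller in the second group, where 13 had 0.152 beside 0.065, and in the fourth, where 7 had -0.011 beside -0.089. In the longest group, 3 had 0.069 beside -0.193.

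**Figure D4:**
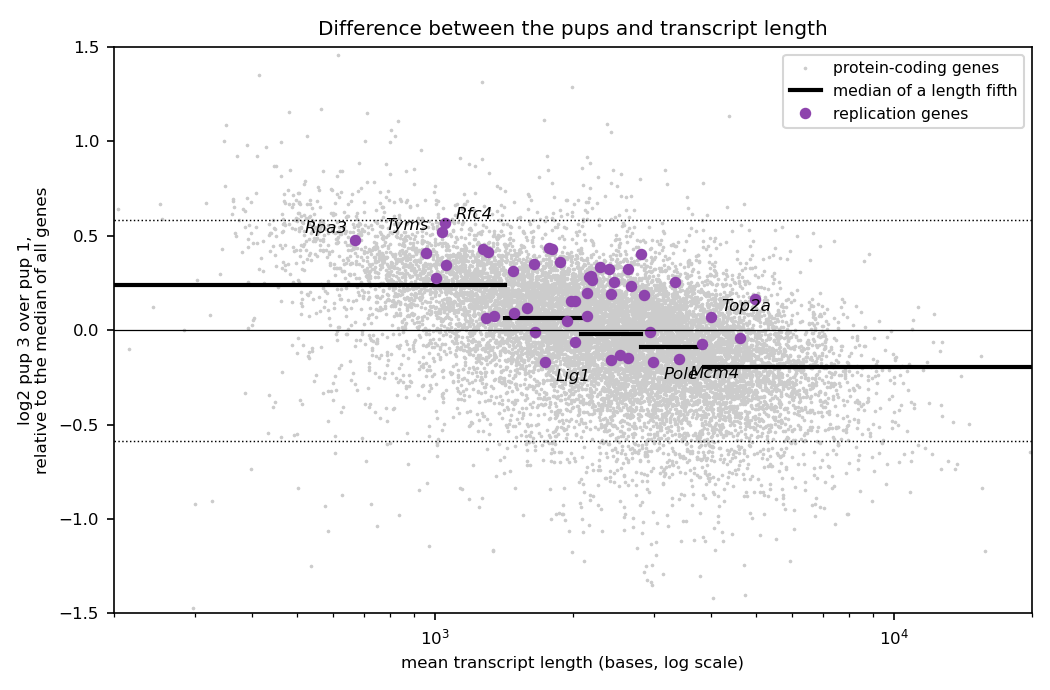
Log2 ratio of TPM + 1 in pup 3 over pup 1, relative to the median of all genes, against mean transcript length (log scale), for protein-coding genes (grey points) and the 47 detected replication genes (purple points). Black bars are medians of the protein-coding genes in each of 5 length groups and dotted lines mark 1.5-fold; some grey points lie beyond the axes. No replication gene passes a dotted line, and the medians descend from 0.24 in the shortest group to -0.19 in the longest.

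Markers of cell types also differed between the pups. The 15 mitosis genes had a median relative log2 ratio of 0.2, with summed levels of 198 TPM in pup 3 against 197 TPM in pup 1. The 6 intermediate progenitor markers had a median of 0.24, with sums of 187 TPM in pup 3 against 175 TPM in pup 1. Hes6 made up most of that sum, at 141 TPM in pup 3 against 127 TPM in pup 1. In TPM, Gadd45g, Btg2 and Eomes were lower in pup 3, and Insm1 and Neurog2 were higher. Radial glia markers were near the all-gene median at -0.09, with sums of 2759 TPM in pup 3 against 2696 TPM in pup 1. Fabp7 made up most of these sums, at 2326 TPM in pup 3 against 2151 TPM in pup 1. The other radial glia markers, except Hes1, had lower TPM in pup 3 than in pup 1. Neuronal markers had a lower median of -0.2, with sums of 4625 TPM in pup 3 against 5561 TPM in pup 1. Of these 8 markers, Tubb3 at 0.13, Stmn2 at 0.02 and Rbfox3 at 0.01 lay above the all-gene median, and the others below. The 5 astrocyte markers had a median of -0.5, with sums of 238 TPM in pup 3 against 327 TPM in pup 1. Both globin genes read, made in red blood cells, were over 1.5-fold higher in pup 3 relative to the all-gene median. Hbb-bs, a beta globin, stood at 954 TPM in pup 3 against 626 TPM in pup 1, a relative log2 ratio of 0.85, and Hba-a1, an alpha globin, stood at 575 TPM in pup 3 against 405 TPM in pup 1, a ratio of 0.74. The 5 markers of oligodendrocyte precursors had a median of -0.13, the 5 of microglia 0.4 and the 4 of endothelium 0.21. Olig1, at 0.07, was the only precursor marker above the all-gene median, and Kdr, at -0.38, the only endothelial marker below it. Every marker in these lists was above 0 in both pups. The part of cell composition in the differences was not tested.

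At the level of transcripts, most of the machinery lay on protein-coding RNAs. The most abundant transcript was protein coding in 43 of the 48 genes and the same in both pups in 45, the exceptions being Gins2, Pole and Lig1. Over 13474 protein-coding genes these shares were 90.9% and 91.7%, so neither count sets the replication genes apart. It held over 90% of the gene's TPM in both pups in 13 genes, such as Rrm2 (Rrm2-201 with 96.5% in pup 3 and 97.4% in pup 1), Prim1 (Prim1-201 with 97.3% in pup 3 and 97.1% in pup 1) and Pcna (Pcna-201 with 96.1% in pup 3 and 94.5% in pup 1). The median share on protein-coding transcripts was 92.7%, beside 95.1% over the same protein-coding genes.

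In 6 genes less than 50% of the TPM lay on protein-coding transcripts. Tyms had 16.7% there in pup 3 and 13.4% in pup 1, or 4.54 TPM in pup 3 against 2.97 TPM in pup 1. Its leading transcript in TPM was Tyms-205, of 618 bases, annotated as a target of nonsense-mediated decay. The transcript with the most counts was the coding Tyms-201, with 161 in pup 3 and 147 in pup 1. Tyms-205 held 133 in pup 3 and 99 in pup 1. Rfc1 had 33.9% in pup 3 and 36.8% in pup 1, with 66.1% in pup 3 and 63% in pup 1 on Rfc1-205, a retained-intron transcript of 485 bases. By counts, however, the 4751-base coding transcript Rfc1-206 led, with 654 counts in pup 3 and 524 in pup 1, against 150 in pup 3 and 146 in pup 1 on Rfc1-205. Short transcripts weigh more in TPM than in counts, and 41 of the 48 genes had the same leader by both measures. Orc4 had 41.6% on coding transcripts in both pups, with the 1477-base Orc4-212 leading in TPM. The coding Orc4-201 led by counts, with 1230 in pup 3 and 1093 in pup 1, against 843 in pup 3 and 591 in pup 1 on Orc4-212. Gins2 had 46.4% in pup 3 and 48.7% in pup 1. Its coding transcript Gins2-201 held 442 of the gene's 522 counts in pup 3 and 385 of 524 in pup 1. Orc1 had 43.5% in pup 3 and 38.6% in pup 1.

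Rfc2 (chromosome 5, 134581366 to 134601805) was the extreme case, and its values turned on the annotation. In release M21 only 3.69% of its TPM in pup 3 and 4.09% in pup 1 lay on a protein-coding transcript, Rfc2-201, which is 4995 bases long there. The rest lay on shorter entries, led by the retained-intron transcripts Rfc2-204 (831 bases, 60.4 TPM in pup 3 against 55.5 TPM in pup 1) and Rfc2-205 (967 bases, 37.3 TPM in pup 3 against 40.6 TPM in pup 1). In release M4 the gene has 1 transcript, a protein-coding Rfc2-201 of 1518 bases, which held the whole gene at 80.8 TPM in pup 3 against 78.6 TPM in pup 1. The gene's level was thus 1.58-fold higher in M21 than in M4, the only one of the 48 to differ by over 1.5-fold, and 45 of the 48 differed by less than 1.2-fold. Counted on protein-coding transcripts alone in M21, Rfc2 stood at 4.7 TPM in pup 3 against 5.08 TPM in pup 1 and moved to the lowest place in the RFC complex, behind Rfc1 at 6.8 TPM in pup 3 against 8.46 TPM in pup 1.

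**Figure D5:**
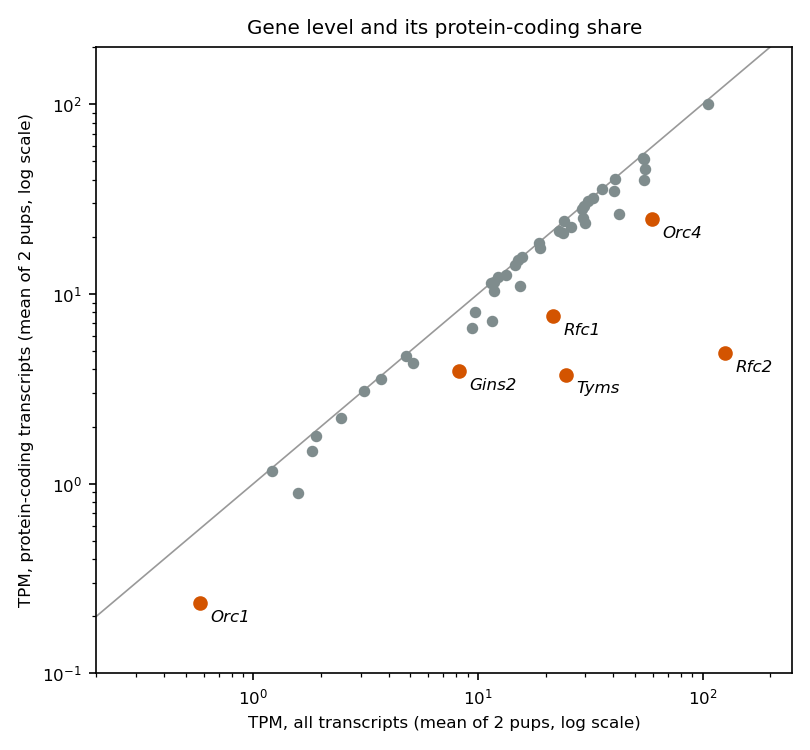
TPM on protein-coding transcripts against TPM on all transcripts, both as means of 2 pups on log scales, for the 48 replication genes. Orange points are the 6 genes with under 50% of their TPM on protein-coding transcripts, and the line marks equality. Rfc2 lies farthest below the line, at 4.89 TPM on coding transcripts and 126 TPM in all, and most other genes lie on or near it.

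Some levels could include reads of neighbours, since whether counting used the strand is not given in the sources used here. Exons of 19 of the 48 genes share bases with another gene, in 15 of them on the opposite strand. Gins2 shares 67.3% of its exon bases with Gse1, which stood at 8.34 TPM in pup 3 against 13.1 TPM in pup 1, close to Gins2 itself. Chaf1a shares 52.5% with Ubxn6, at 70.4 TPM in pup 3 against 72.8 TPM in pup 1, far above Chaf1a. Orc2 shares 29.8% with Nif3l1, at 38.5 TPM in pup 3 against 34.3 TPM in pup 1, and Rfc4 12.7% with Eif4a2, at 249 TPM in pup 3 against 257 TPM in pup 1. Fen1 shares 78.8% with the antisense gene Gm10143, which held 0.7 TPM in pup 3 against 1.42 TPM in pup 1. Smaller shares overlap abundant genes of the opposite strand. Rfc5 shares 10.7% with Wsb2, at 232 TPM in pup 3 against 270 TPM in pup 1. Orc6 shares 6.93% with Vps35, at 120 TPM in pup 3 against 139 TPM in pup 1. Cdc45 shares 5.96% with Ufd1, at 98.9 TPM in pup 3 against 111 TPM in pup 1. Fen1 also shares 5.37% with Tmem258, at 317 TPM in pup 3 against 256 TPM in pup 1. The levels of genes that share exon bases are therefore uncertain. The share of bases does not bound the error, and its size was not tested.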

How the data were processed

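PolyA RNA-seq was measured in 2 single forebrains, and per the file notes the tables refer to mm10 with GENCODE M21 or M4. RSEM uses columns of these names, but no aligner or quantifier is given in the sources used here. The authors deposited expected counts (estimated counts per gene or transcript), TPM and FPKM, posterior mean TPM, and the percent of a gene's TPM on each transcript. The bounds of the TPM intervals were read as deposited signal values. M21 was used and M4 was an alternative.

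The 48 genes and all lists were chosen with earlier results of these data known. Genes were named by rule: the highest and lowest of each role, the 5 most different in each direction, every pair gene and every member under 1 TPM, and for the E2F, mitosis and further replication lists the 2 highest and 2 lowest; other genes were named after their values were seen. A gene was detected at 1 TPM or more. Differences were log2(TPM + 1), pup 3 over pup 1, minus the all-gene median, in genes with a mean of 1 TPM or more, and the call was 1.5-fold; gene pairs used a pseudocount of 0.1. SDs are over 2 pups. The labels give separate pups. Their counts differed by more than sampling noise (median chi-square 19 over 9689 genes with 1000 or more counts), which shows only that they are not copies of 1 library. Spread between them may be technical. Reads carry no molecular identifiers here, so Wilson intervals cover counting error alone. Promoters came from RefSeq; a gene counted if any of its promoters matched. Python 3.11.15, pandas 2.3.3, numpy 2.4.6, edgeR 4.0.16 (TMM) and DESeq2 1.42.0 (size factors) were used. No p-value was computed, because 1 group gives no comparison. 1 gene of a marker list is not reported here.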

Additional observations from a re-analysis of the deposited data

How the results depend on the processing

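The count of detected genes stayed within 42 to 48 under a TPM minimum of 0.5 or 2, posterior mean TPM, FPKM, release M4, protein-coding transcripts alone and either pup alone. The median level was 14.7 TPM on protein-coding transcripts alone, an alternative added after seeing the data, against 18.8 TPM as reported. The median difference between the pups was 0.15 to 0.28 under 9 alternatives. It changed sign to -0.04 (-0.043) when not centred and to -0.04 (-0.045) with no filter on low values. With no filter the lowest and highest values, -0.408 for Pole and 0.331 for Rfc4, were those found without centring. In effect nothing was subtracted there, so these 2 settings are nearly the same. The count of genes over 1.5-fold apart was 1, Rfc4, with a pseudocount of 0.1, with CPM scaled by TMM and with CPM scaled by DESeq2 size factors, and 0 under the other 8 alternatives. E2F matches were found in 9 of 40 genes with upstream bases alone, against 2.16% of all genes, and in 17 with the core GCGGGAA, against 5.29%. Of 11 gene pairs, none changed sign under any alternative, and 4 moved by more than their SD on protein-coding transcripts. Among 9 complexes, the spread moved by more than its SD in 5 on protein-coding transcripts, where the Orc1-6 ratio was 227 against 108 as reported, in 3 with posterior mean TPM, where that ratio was 44.7, and in 3 with release M4, where the RFC ratio was 3.4 against 5.88. Leaving out either pup gave a median level of 18.1 or 19.7 TPM and left no difference to compute. Orc1, with 22 counts in pup 3 and 27 in pup 1, is the gene that depth limits most. Protein features were not run. No paired analysis was possible because the 2 libraries form 1 group.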
